A study of Mus musculus with 6 samples.

Results

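The endothelin and renin-angiotensin systems were represented by 9 genes, Edn1, Ece1, Ednra, Ednrb, Agt, Ace, Agtr1a, Agtr2 and Atp6ap2. They were chosen by gene name, and each matched 1 of the 57010 rows of the deposited count table. The libraries were made from primary neonatal mouse cardiomyocytes (NMCMs), isolated from C57BL/6 pups and kept under hypoxia (HO) in every library. In the HO + Vehicle group (V1, V2 and V3) the cells received vehicle, and in the HO + β-SITO group (T4, T5 and T6) they received β-sitosterol (β-SITO), a plant sterol. The dose of β-SITO and the hours of hypoxia for these libraries are not given in the sources used here, and no normoxic library was analysed. The comparison asked which transcripts differed when hypoxic cardiomyocytes were given β-SITO.

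Endothelin-1 and angiotensin II are small vasoactive peptides that are cut from larger precursors and act on G protein-coupled receptors. Endothelin-1 is encoded by Edn1, trimmed by furin-type convertases and released in its active form by endothelin converting enzyme 1 (Ece1). The A receptor (Ednra) drives contraction of smooth muscle and growth of cardiomyocytes, whereas the B receptor (Ednrb) on endothelium releases nitric oxide and clears the peptide. Angiotensinogen (Agt) is cut by renin to angiotensin I, which angiotensin converting enzyme (Ace) turns into angiotensin II. Most known effects of angiotensin II in the heart run through the type 1 receptor (Agtr1a, with a close copy, Agtr1b, in mice), and the type 2 receptor (Agtr2), abundant in fetal tissue, often opposes them. Atp6ap2 encodes the (pro)renin receptor, which is also an accessory subunit of the vacuolar proton pump.

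The libraries held between 16694734 and 18460522 counts, and every level is in CPM, a gene's reads relative to the TMM-adjusted total of its library. The groups were compared in edgeR (quasi-likelihood test), and p-values were adjusted by Benjamini-Hochberg over 14799 genes. A gene is said to have risen or fallen at an adjusted p under 0.05, and is called when it also changed more than 2-fold. Nothing in the labels says that the libraries came from separate cultures, so the p-values measure the spread between these samples, which may be technical. Cardiomyocyte markers were abundant, with 4524 to 7331 summed CPM over 10 genes, but 10 fibroblast markers summed to 30180 to 46360 CPM, so the label covers a mixed culture. In such bulk samples, a larger share of one cell type and more RNA per cell of that type cannot be told apart. The libraries of the HO + β-SITO group carry a name suffix that the others lack, and any separate handling cannot be told apart from the treatment.

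All 9 genes passed the filter on low counts, Agtr2 only through its counts in the HO + β-SITO group. Of the 9 genes, 4 were called higher in the HO + β-SITO group (Ednrb, Agtr2, Agt and Edn1) and 0 were called lower. Among all genes tested, 12.8% were called higher and 10.1% lower. DESeq2 and limma-voom also gave 4 called higher and 0 called lower. Without the 2-fold requirement, 7 of the 9 rose, against 33.0% of all genes, and 2 fell (Ece1 and Atp6ap2), against 33.8% of all genes. The groups were fully separated for 7 of the 9 genes, against 70.5% of all genes tested, so separation by itself was common in these data. The median log2 fold change of the 9 genes was 0.99, against -0.01 over all genes. Agtr2 (log2 fold change 4.59) is part of this median and of the counts above, and its direction was set by how it entered the test.

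**Figure D1:**
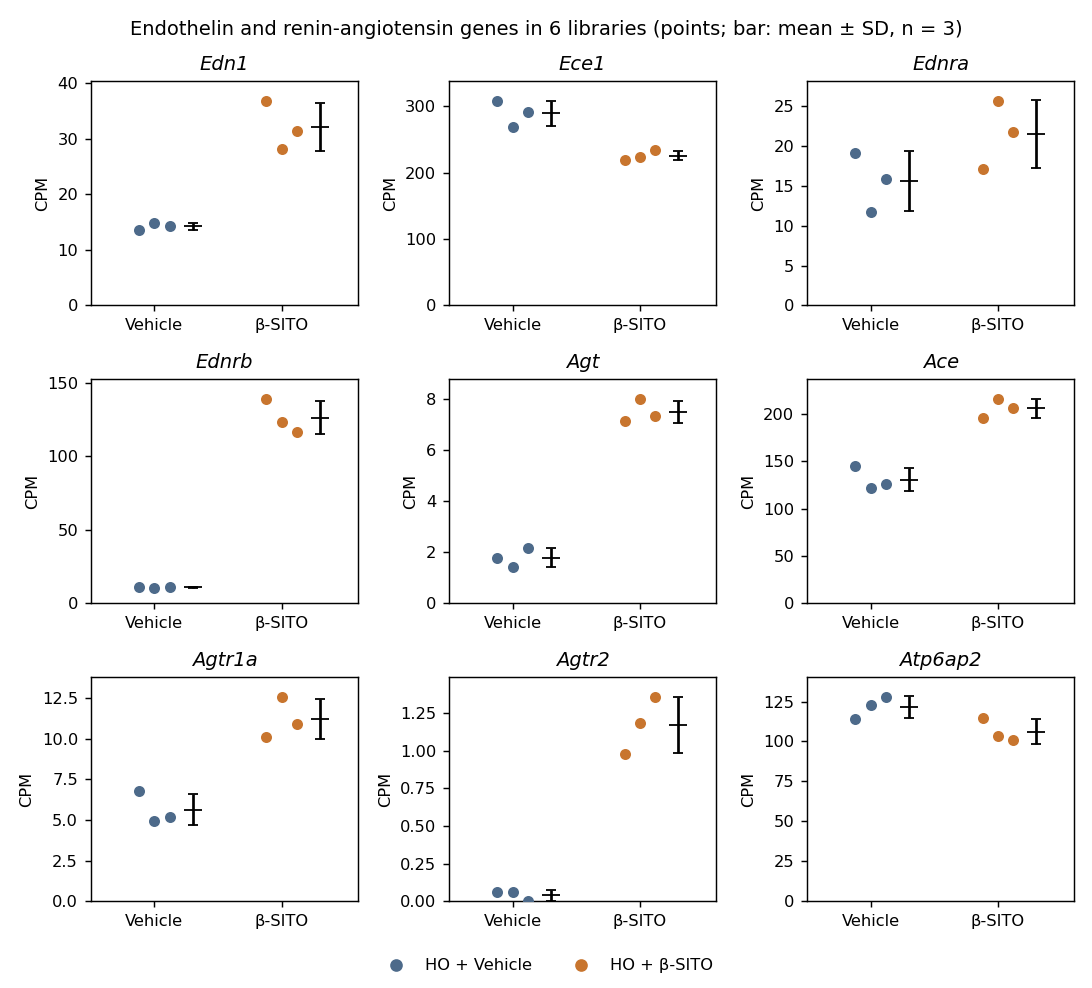
Level of each of the 9 genes in every library, in CPM on a linear axis from 0 (points), with the mean ± SD of the 3 libraries of each group (bars). Ednrb, Agt, Agtr2 and Edn1 have the largest fold changes between the groups, while the libraries of Ednra and Atp6ap2 overlap.

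The 4 called genes each have 1 start site in RefSeq's promoter table (build GRCm38.p6), and the 250 bases before it are shown. Agtr2 entered the test only through the group in which it was high, so no weight is put on its call. Shared regulation of the 4 genes was not tested. The table holds windows for 8 of the 9 genes and lists none for Agtr1a. Capitals mark matches, on either strand, to any of the motifs that are given after the sequences, the NF-κB consensus by its name alone. The windows lie at chr14:103843702-103843951 (Ednrb, minus strand), chrX:21484374-21484623 (Agtr2, plus strand), chr8:124569707-124569956 (Agt, minus strand) and chr13:42301226-42301475 (Edn1, plus strand).
Ednrb: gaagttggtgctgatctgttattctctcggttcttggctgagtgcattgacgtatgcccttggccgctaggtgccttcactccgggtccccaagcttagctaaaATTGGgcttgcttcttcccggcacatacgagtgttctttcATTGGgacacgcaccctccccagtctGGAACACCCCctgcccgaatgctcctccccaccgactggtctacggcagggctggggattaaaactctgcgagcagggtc
Agtr2: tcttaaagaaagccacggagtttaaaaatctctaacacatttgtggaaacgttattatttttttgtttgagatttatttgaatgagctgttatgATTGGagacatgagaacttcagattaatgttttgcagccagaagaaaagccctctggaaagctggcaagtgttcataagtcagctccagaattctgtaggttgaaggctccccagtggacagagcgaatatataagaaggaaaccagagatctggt
Agt: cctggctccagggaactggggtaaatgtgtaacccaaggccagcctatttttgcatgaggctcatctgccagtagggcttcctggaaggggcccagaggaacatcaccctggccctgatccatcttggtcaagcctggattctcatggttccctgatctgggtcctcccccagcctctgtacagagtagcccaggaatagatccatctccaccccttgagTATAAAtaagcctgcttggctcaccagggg
Edn1: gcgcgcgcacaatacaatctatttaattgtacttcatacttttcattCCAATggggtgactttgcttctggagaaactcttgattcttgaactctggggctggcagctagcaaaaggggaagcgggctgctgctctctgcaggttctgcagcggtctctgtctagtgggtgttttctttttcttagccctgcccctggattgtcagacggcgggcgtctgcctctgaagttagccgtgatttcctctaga

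CCAAT, which 33.8% of the 32851 windows in the table hold, was found in 3 of these windows, at 2 positions before Ednrb and 1 each before Agtr2 and Edn1. The window of Agt had TATAAA starting 30 bases before the start site, a motif held by 12.4% of windows. An NF-κB consensus match was found before Ednrb only, 80 bases before the start site, and 7.25% of windows have one. The AP-1 motif, searched as TGACTCA and held by 4.46% of windows, was absent from these 4 windows. Also absent were the GATA motif AGATAA (9.99% of windows), the core of the hypoxia-inducible factor site with the letters ACGTG (16.6%) and the GC box with the letters GGGCGG (32.7%). Such matches describe the letters of the windows, and no binding was measured.

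Edn1 encodes the endothelin-1 precursor and lies on chromosome 13 from 42454952 to 42461466 on the plus strand (coordinates of the count table, for which the submitters' processing notes name GRCm39). It had 13.6, 14.9 and 14.3 CPM in V1, V2 and V3, and 36.7, 28.2 and 31.5 CPM in T4, T5 and T6. Every HO + β-SITO library was above every HO + Vehicle library, with the highest value in T4. The means were 14.3 ± 0.607 and 32.2 ± 4.30 CPM (SD, n = 3), a 2.26-fold rise (log2 fold change 1.17, SE 0.12, adjusted p = 5.56e-08 in edgeR). The size of the rise was close to the 2-fold line, and a test against a 2-fold change (glmTreat) gave an adjusted p of 0.0854.

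Ece1, the protease that releases active endothelin-1, lies on chromosome 4 from 137589548 to 137692540 (plus strand). V1, V2 and V3 had 308, 269 and 292 CPM, and T4, T5 and T6 had 220, 224 and 234 CPM. All 3 HO + β-SITO libraries lay below the lowest HO + Vehicle library, V2. The fall was small, with a log2 fold change of -0.36 (SE 0.06, edgeR adjusted p = 1.18e-04). Since the precursor rose and the protease fell, the log2 ratio of Ece1 to Edn1 went from 4.33 ± 0.16 to 2.82 ± 0.21 (SD, n = 3), a difference of -1.51 (SE 0.15). The ratios of the groups did not overlap (two-sided exact permutation test, p = 0.1, the smallest that 3 libraries against 3 allow, and 0.1 after adjustment over 3 ratios).

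Ednrb, the endothelin B receptor, on chromosome 14 from 104052061 to 104081838 (minus strand), showed the clearest change of the endothelin genes. The HO + Vehicle libraries had 10.9, 10.6 and 11.3 CPM, from 172, 169 and 183 counts. The HO + β-SITO libraries had 139, 123 and 117 CPM, from 2701, 2193 and 2246 counts. The values within each group were close together and the groups lay far apart. The rise from 10.9 ± 0.379 to 126 ± 11.3 CPM (SD, n = 3) was 11.6-fold (log2 fold change 3.53, SE 0.08, edgeR adjusted p = 9.61e-15), which ranked 115 among the increases of all 14799 genes.

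Ednra, the endothelin A receptor, on chromosome 8 from 78389660 to 78451093 (minus strand), changed less clearly. It had 19.1, 11.7 and 15.9 CPM in V1, V2 and V3, and 17.1, 25.6 and 21.8 CPM in T4, T5 and T6. The groups overlapped, because T4 lay below V1. Its log2 fold change of 0.46 (SE 0.27) passed in edgeR (adjusted p = 0.0181), while a two-sided exact permutation test over the libraries gave p = 0.2. Without V2 the log2 fold change dropped to 0.29 (adjusted p = 0.0984) and without T5 to 0.35 (adjusted p = 0.0710), while without V3 it was 0.50 (adjusted p = 0.05004). The library with the lowest Ednra in each group, V2 and T4, was also the one with the lowest summed cardiomyocyte markers (5332 CPM in V2 against 5516 and 6325 in V3 and V1, and 4524 CPM in T4 against 7320 and 7331 in T5 and T6), and the part of this in the values of Ednra was not tested.

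The balance of the endothelin receptor transcripts therefore differed between the groups. The log2 ratio of Ednrb to Ednra was -0.81, -0.14 and -0.48 in V1, V2 and V3, and 3.02, 2.26 and 2.42 in T4, T5 and T6. It was negative in every HO + Vehicle library and positive in every HO + β-SITO library. The difference of 3.04 (SE 0.30, n = 3 per group) had a two-sided exact permutation p of 0.1, the smallest possible, and ranged from 2.82 to 3.21 when single libraries were left out.

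Among 11 other genes of endothelin synthesis and breakdown, 5 had enough counts to be tested, of which 2 were called higher and 0 lower. The shares of all genes tested were 12.8% and 10.1%. Both called genes encode proprotein convertases, the enzymes that trim precursors. Pcsk6 had a log2 fold change of 1.79 (80.8 against 279 CPM, adjusted p = 6.29e-13) and Pcsk5 of 1.04 (14.4 against 29.5 CPM, adjusted p = 2.39e-08). Furin and Pcsk7, of the same enzyme family, fell by 0.48 and 0.50 on the log2 scale, and Mme, encoding neprilysin, which degrades endothelins and other peptides, fell by 0.60 (adjusted p = 0.0109). The other endothelin peptides were near the detection limit, with at most 1 count of Edn2 and at most 3 counts of Edn3 in any library. Ece2, a second converting enzyme, had between 0 and 7 counts per library and was not tested.

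Agt, which encodes the precursor of all angiotensin peptides, was low in these cells and rose. It lies on chromosome 8 from 125283273 to 125296445 (minus strand). The HO + Vehicle libraries held 28, 23 and 35 counts (1.77, 1.44 and 2.17 CPM), and the HO + β-SITO libraries 139, 142 and 141 counts (7.14, 7.98 and 7.34 CPM). The groups were well separated, and the HO + β-SITO libraries were nearly alike. The means of 1.79 ± 0.364 and 7.49 ± 0.439 CPM (SD, n = 3) differed 4.16-fold (log2 fold change 2.06, SE 0.17, edgeR adjusted p = 4.92e-08).

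Ace, which forms angiotensin II and also inactivates bradykinin, lies on chromosome 11 from 105858771 to 105880790 (plus strand). V1, V2 and V3 had 145, 121 and 126 CPM, and T4, T5 and T6 had 195, 215 and 207 CPM. All 3 HO + β-SITO libraries were higher than the highest HO + Vehicle library, V1. The rise of 1.58-fold (log2 fold change 0.66, SE 0.09, edgeR adjusted p = 6.91e-07) did not reach 2-fold. Because Agt rose more than Ace, the log2 ratio of Ace to Agt moved from 6.11 ± 0.28 to 4.76 ± 0.03 (SD, n = 3), a difference of -1.35 (SE 0.17), with a two-sided exact permutation p of 0.1.

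Agtr1a, the main type 1 angiotensin receptor, on chromosome 13 from 30520424 to 30566850 (plus strand), had 6.76, 4.95 and 5.21 CPM in V1, V2 and V3, and 10.1, 12.5 and 10.9 CPM in T4, T5 and T6. The groups did not overlap. It rose 1.98-fold (log2 fold change 0.99, SE 0.16, edgeR adjusted p = 1.60e-05), just under the line for a call. It was called with library size only (log2 fold change 1.13) or upper quartile normalization (1.13), and without V1 (1.16), T4 (1.05) or T6 (1.01). Agtr1b, whose sequence is nearly the same, had between 0 and 3 counts per library, and reads that fit both genes may have been lost or split. A lncRNA gene, Gm48161, overlaps Agtr1a on the same strand and took 8 counts over the HO + Vehicle and 15 over the HO + β-SITO libraries. Edn1, Ece1, Ednra and Ace each overlap a lncRNA gene on the opposite strand, with at most 22 counts summed over a group, and whether the counting used strand is not given in the sources used here.

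Agtr2, the type 2 angiotensin receptor, on chromosome X from 21350783 to 21355403 (plus strand), was almost undetected in the HO + Vehicle group and low in the HO + β-SITO group. V1 and V2 held 1 count each and V3 held 0, whereas T4, T5 and T6 held 19, 21 and 26 counts (0.976, 1.18 and 1.35 CPM). The summed counts of 2 and 66 came to a 28.0-fold ratio with a 95% exact interval from 7.45 to 236 that covers counting error only. The edgeR fit called Agtr2 higher (adjusted p = 4.36e-06), but as it entered the test only through the group in which it was high, no weight is put on that call here. The ratio of Agtr2 to Agtr1a was not computed, since every HO + Vehicle library had at most 1 count of Agtr2.

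Atp6ap2, the (pro)renin receptor, lies on chromosome X from 12454040 to 12483288 (plus strand). V1, V2 and V3 had 114, 123 and 128 CPM, and T4, T5 and T6 had 115, 103 and 101 CPM. T4 lay above V1, so the groups overlapped. The log2 fold change was -0.19 (SE 0.07, edgeR adjusted p = 0.0176), and a two-sided exact permutation test gave p = 0.2. The fall did not pass with library size only (log2 fold change -0.05, adjusted p = 0.561) or upper quartile normalization (-0.05, adjusted p = 0.519), nor without V2 (-0.18, adjusted p = 0.0553), V3 (-0.13, adjusted p = 0.136), T5 (-0.14, adjusted p = 0.132) or T6 (-0.15, adjusted p = 0.132). Atp6ap1, the partner subunit of the proton pump, was at -0.10 on the log2 scale and did not pass (adjusted p = 0.140).

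Of 24 other renin-angiotensin genes, 14 were tested, with 3 called higher and 0 lower, and their median log2 fold change was 0.17. Those called were 21.4% of the genes tested on the list, near the 22.8% called of all genes. Without the 2-fold requirement 7 rose and 4 fell, against 33.0% and 33.8% of all genes. The called genes were Mcpt4, a chymase-type protease that can form angiotensin II (log2 fold change 2.07, 5.62 against 23.6 CPM, adjusted p = 2.65e-10), Enpep, aminopeptidase A, which cuts angiotensin II to angiotensin III (1.24, 4.82 against 11.4 CPM, adjusted p = 6.44e-07), and Arap1 (1.01, adjusted p = 3.98e-10). Agtrap, whose product binds the type 1 receptor and promotes its internalization, fell from 115 to 68.9 CPM (log2 fold change -0.74, adjusted p = 8.92e-08). Lnpep, an aminopeptidase that binds angiotensin IV, had a log2 fold change of 0.05 and did not pass (adjusted p = 0.521).

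Several genes of the pathway were at or near 0 counts. Renin itself (Ren1) had 1 count in V2, 1 count in T4 and 0 in the other libraries. Mas1, the receptor of angiotensin 1-7, had at most 3 counts in any library. The mast cell chymase Cma1 had at most 1 count in any library. Cpa3, another mast cell protease, was detected at low counts, with 1, 0 and 2 in V1, V2 and V3 and 10, 6 and 8 in T4, T5 and T6. Its summed counts came to a 6.79-fold ratio with a 95% exact interval from 2.06 to 35.2, for counting error only, in the same direction as Mcpt4, and the part of mast cells in either value was not tested. Transcripts of the aldosterone synthases Cyp11b1 and Cyp11b2 were at 0 counts in every library.

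**Figure D2:**
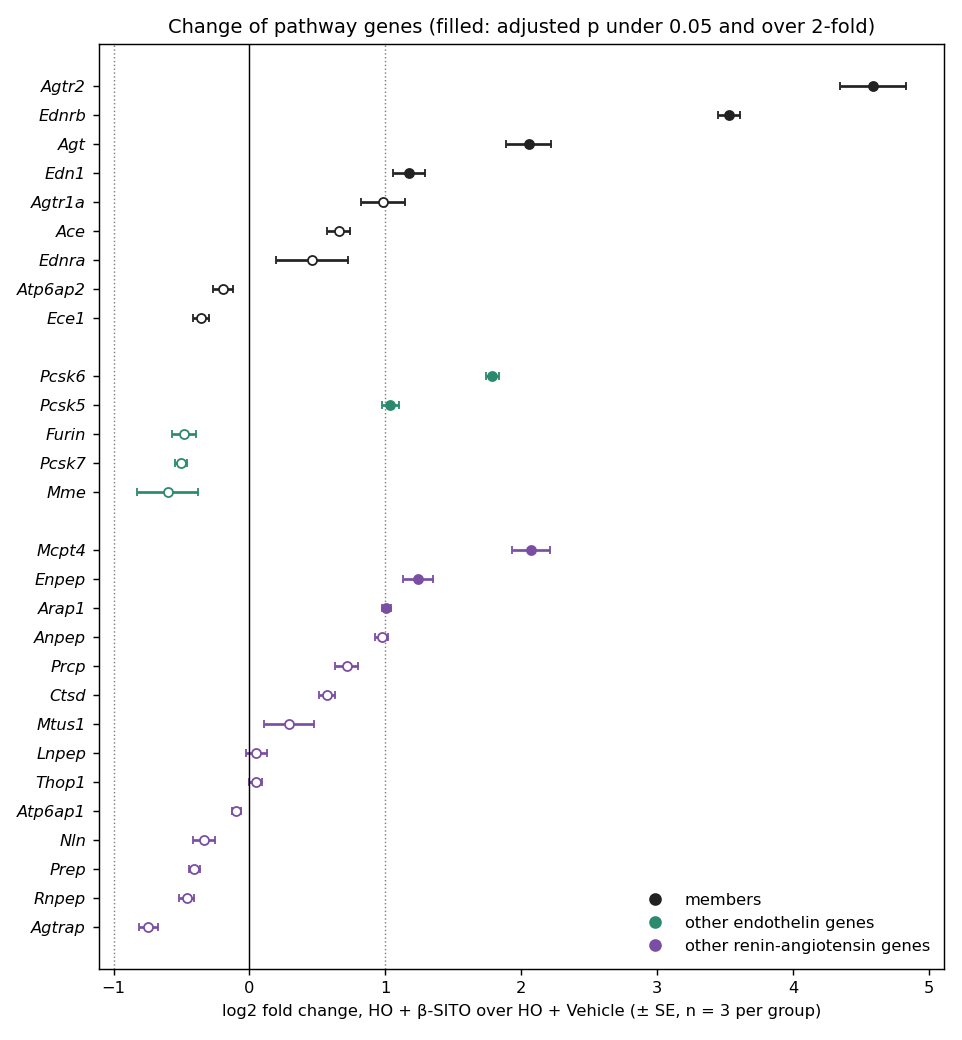
Log2 fold change of HO + β-SITO over HO + Vehicle (horizontal axis, ± SE, n = 3 per group) for the 9 genes and for the other tested genes of endothelin and angiotensin processing, with dotted lines at a 2-fold change. Filled points passed an adjusted p under 0.05 and 2-fold, and all 9 filled points lie on the side of higher levels with β-SITO. Among them, Agtr2 entered the test only through the group in which it was high, so its side carries no weight.

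Levels of different genes were compared as CPM per kb of exon. In the HO + Vehicle group the order was Ece1 (54.6 ± 3.66 CPM per kb, SD, n = 3), Atp6ap2 (46.4 ± 2.57), Ace (24.7 ± 2.33), Edn1 (6.66 ± 0.284), Ednra (2.84 ± 0.685), Ednrb (2.56 ± 0.0888), Agtr1a (2.02 ± 0.351), Agt (0.948 ± 0.193) and Agtr2 (0.0126 ± 0.0109). Of the neighbours in that order, only Ednra and Ednrb overlapped between libraries. In the HO + β-SITO group Ece1 (42.7 ± 1.38), Atp6ap2 (40.6 ± 2.87) and Ace (38.9 ± 1.88) overlapped with their neighbours. Ednrb followed (29.6 ± 2.64) and had passed Edn1 (15.0 ± 2.01). Agtr1a (4.01 ± 0.443), Agt (3.96 ± 0.232) and Ednra (3.92 ± 0.779) then overlapped, and Agtr2 (0.352 ± 0.0567) was last. In both groups Ece1 thus exceeded Edn1, and Ace exceeded Agt. Renin, which cuts Agt, is not part of this order, and Ren1 had at most 1 count in any library. With β-SITO the B receptor lay above Ednra, Agtr1a and Agtr2 in level.

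**Figure D3:**
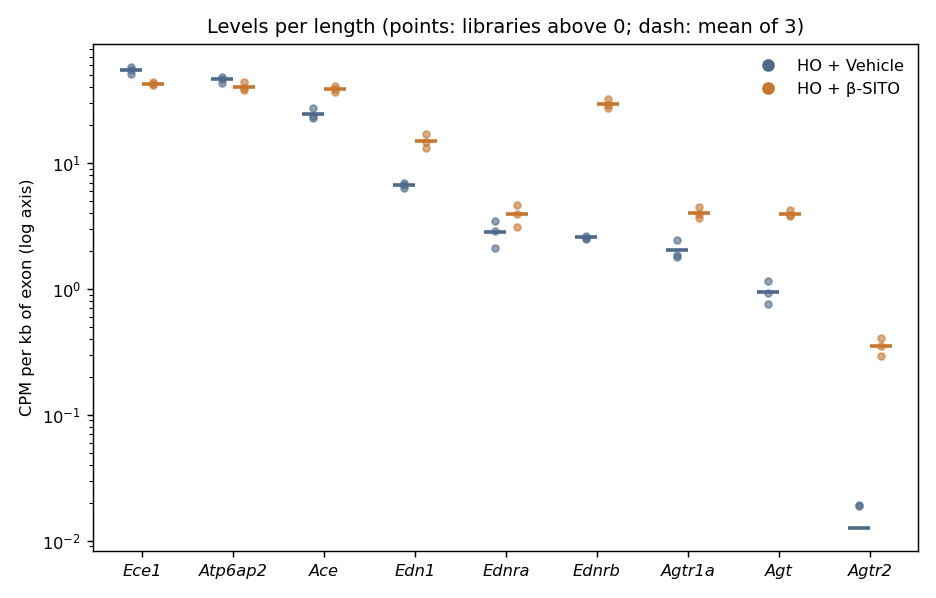
Level per exon length of the 9 genes in CPM per kb on a log axis, ordered by the HO + Vehicle mean, with points for libraries above 0 and a dash for the mean of 3. Ednrb moves from 2.56 to 29.6 CPM per kb, next to Ace, whereas Ece1 and Atp6ap2 stay at the top of the range in both groups.

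Endothelial cells are a main source of Edn1, Ace and Ednrb transcripts in the heart, and their markers differed between the groups. With β-SITO, all 10 endothelial markers were called higher (median log2 fold change 1.88), against 12.8% of all genes tested. Their summed level ranged from 221 to 253 CPM over V1, V2 and V3 and from 878 to 911 CPM over T4, T5 and T6, and 0 of the 10 were at 0 counts in any library. The most abundant were Cdh5 (78.4 against 281 CPM) and Pecam1 (50.6 against 181 CPM). Smooth muscle cells and pericytes are among the cells that carry Ednra and Agtr1a. Of their 10 markers, 6 were called higher and 0 lower (median 1.38, sums of 1191 to 1298 against 2136 to 2428 CPM). The most abundant were Acta2, at 562 against 1114 CPM, and Pdgfrb, at 528 against 813.5 CPM. The study used α-SMA, the product of Acta2, to follow activation of cardiac fibroblasts, so Acta2 is not particular to smooth muscle and pericytes. Cardiomyocyte markers had 1 of 10 called higher (Myh7) and 0 lower (median 0.12), with Myh6 the most abundant. Fibroblast markers also had 1 of 10 called higher (Dpt) and 0 lower (median 0.50), with Col3a1 the most abundant.

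Among the further marker lists, macrophage markers had 6 of 10 called higher and 1 lower, against 12.8% and 10.1% of all genes. Their sums were 1229 to 1349 against 2652 to 3253 CPM, with Lyz2 the most abundant. Epicardial and mesothelial markers had 2 of 8 called higher and 1 lower, and the last, Aldh1a2, went from 842 to 85.0 CPM. The list's sum was 943 to 976 CPM against 236 to 279 CPM, although every other marker of the list had a positive log2 fold change. Of 8 Schwann cell and neuronal markers 3 were tested and 0 called. The part of these cell types in the changes of the 9 genes was not tested, but levels were also set against their markers in the same library, a comparison chosen after the data were seen.

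Relative to the mean log2 CPM of the 10 endothelial markers, Ednrb was still higher in the HO + β-SITO group (-0.43 ± 0.12 against 1.005 ± 0.13, SD, n = 3), a difference of 1.44 (SE 0.10). The marker Vwf rose more than Ednrb, with a log2 fold change of 4.09 against 3.53. Relative to the same mean, Edn1 went from -0.05 ± 0.15 to -0.97 ± 0.19, a difference of -0.92, so it increased less than that mean. The markers' own log2 fold changes ran from 1.05 (Cldn5) to 4.09 (Vwf), a range that holds that of Edn1 (1.17). Ace (-1.42) and Ece1 (-2.43) also differed downwards from the mean of the endothelial markers. In the HO + Vehicle group Ece1 (289.5 CPM) and Ace (130.5 CPM) lay above the most abundant of these markers, Cdh5 (78.4 CPM). In the HO + β-SITO group Ece1 (226 CPM) and Ace (205.7 CPM) lay below Cdh5 (280.9 CPM). Which cells carried Ece1 and Ace was not tested. Relative to the mean of the smooth muscle and pericyte markers, Ednra differed by -0.87 and Agtr1a by -0.36. Those markers' own log2 fold changes ran from 0.61 (Cspg4) to 2.77 (Cnn1), with Agtr1a (0.99) inside this range and Ednra (0.46) below it. Each of these 6 comparisons separated the groups, with a two-sided exact permutation p of 0.1, the smallest possible, and 0.1 after adjustment.

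**Figure D4:**
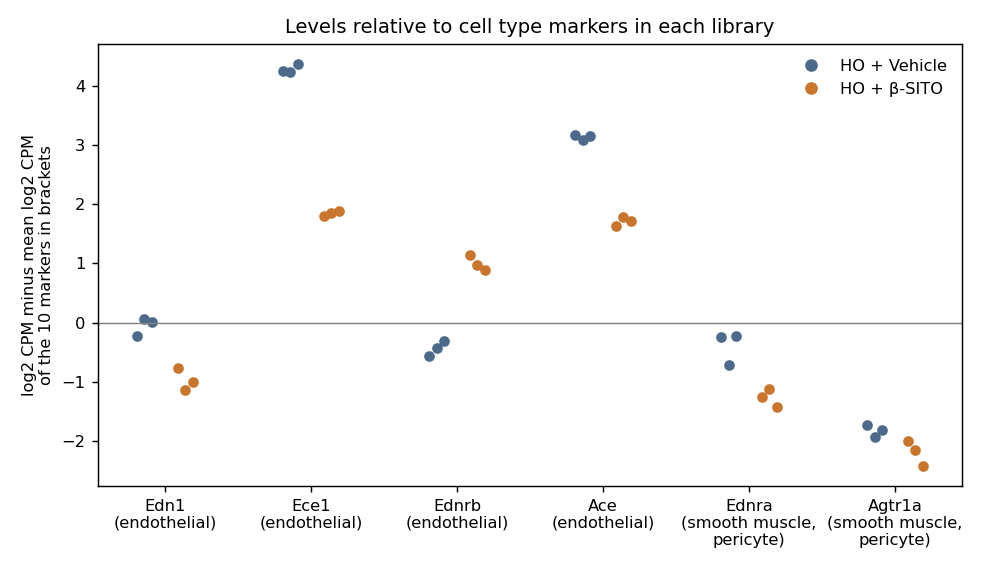
Log2 CPM of 6 genes minus the mean log2 CPM of the 10 markers named in brackets, in each library. Ednrb is the only one of the 6 for which the HO + β-SITO libraries lie above the HO + Vehicle libraries on this scale.

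Endothelin and type 1 angiotensin receptors couple to Gq proteins, phospholipase C and calcineurin. Of 30 genes listed for this signalling, all tested, 10 were called higher and 1 lower (median log2 fold change 0.30), against 12.8% and 10.1% of all genes. Rgs5, among the 10, is also on the list of smooth muscle and pericyte markers. The 10 include Trpc6, named after its values were seen, which had 6, 7 and 7 counts in V1, V2 and V3 against 17, 15 and 22 in T4, T5 and T6 and passed the filter on low counts only through the group in which it was high. A test against a 2-fold change (glmTreat) left 3 called higher and 0 lower. The largest increases were those of Nfatc2, a transcription factor that calcineurin activates (log2 fold change 1.68, adjusted p = 3.80e-08), Rgs2, which switches off Gq (1.61, adjusted p = 2.26e-08), Arrb1, an arrestin that uncouples receptors (1.47, adjusted p = 4.81e-11), and Plcb1, a phospholipase C (1.34, adjusted p = 1.19e-04). Gnaq, the Gq subunit itself, fell by 0.23 on the log2 scale (adjusted p = 0.00364). Gna13, the gene called lower and named after its value was seen, was at -1.03 (adjusted p = 8.99e-10) and was no longer called without V3 or without T5. Like Gna12 on the same list, Gna13 encodes a subunit of the G12/13 family and not of Gq.

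Among 13 genes that respond to Gq-coupled receptors, 6 were called higher and 1 lower, against 12.8% and 10.1% of all genes. Their median log2 fold change was 0.87. Ccn2 (connective tissue growth factor) rose by 2.57 on the log2 scale (65.9 against 390.2 CPM, adjusted p = 3.17e-14) and Ccn1 by 1.92 (79.8 against 302 CPM). Nppb (B-type natriuretic peptide) rose by 2.10, from 153, 159 and 175 counts to 371, 1002 and 1077, so T4 stood well below T5 and T6. Rcan1, often read for calcineurin activity, was counted here over the whole gene and not by isoform. It had a log2 fold change of -0.11 and did not pass (adjusted p = 0.401). Members of this list thus went both ways. Myh7, called higher here, is also the cardiomyocyte marker called higher, and Postn is also on the fibroblast list.

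Genes linked to products of the pathway by other routes were mostly too low to test. Of 8 genes of the kinin system, which ACE connects to angiotensin, 2 were tested and 0 called, and the B2 bradykinin receptor Bdkrb2 fell by 0.96 on the log2 scale (2.43 against 1.25 CPM, adjusted p = 0.0153) with overlapping libraries. Of 5 genes of the aldosterone branch 2 were tested and 0 called. With 2 genes tested in each of these lists, 0 called says little beside the 22.8% called of all genes. The mineralocorticoid receptor Nr3c2 rose by 0.98 (3.22 against 6.36 CPM, adjusted p = 1.70e-04) and its target Sgk1 by 0.66 (35.2 against 55.7 CPM, adjusted p = 2.95e-07).

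For the 4 called genes, tested genes with similar profiles were found by Euclidean distance between centred log2 CPM over the 6 libraries. For Ednrb the nearest was Gucy1a1, a subunit of the nitric oxide receptor (distance 0.17, log2 fold change 3.41). For Edn1 they were Myo1f (0.13) and Cd300ld3 (0.15), for Agt Pgm2l1 (0.21) and Pald1 (0.24), and for Agtr2 Lmcd1 (0.21) and Slc24a4 (0.29). With 2 groups of 3 libraries, such likeness reflects mainly the size of the difference between the groups. Agtr2 had at most 1 count in each HO + Vehicle library, so its profile there was set mainly by the prior count of 2. Slc24a4 was as low there, with a mean of 0.042 CPM against 1.18 CPM in the HO + β-SITO group. Lmcd1 had a log2 fold change of 2.98, against 4.59 for Agtr2, in the edgeR fit.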

How the data were processed

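RNA-seq was performed on 6 libraries of hypoxic NMCMs, 3 per group. The authors deposited raw read counts per gene from featureCounts, without normalization. The submitters' processing notes also list FastQC, HISAT2 and the genome build GRCm39, and the counting options and strand setting are not given in the sources used here. The study's methods name DESeq2 with a threshold of adjusted p under 0.05 and more than 2-fold.

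From the deposited counts, genes were filtered with filterByExpr, normalized with TMM and tested across all genes with edgeR 4.0.16's quasi-likelihood test in R 4.3.3, with limma 3.58.1 and DESeq2 1.42.0 as alternatives. The fit was tested on simulated data. Only the group entered the model. SEs of log2 fold changes come from log2 CPM with a prior count of 2. Exon lengths were taken from GENCODE vM21 by gene identifier and promoter windows from RefSeq (GRCm38.p6). Those coordinates were not mixed with those of the count table. Where counts are few, intervals cover counting error only.

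The 9 genes and all gene lists were chosen with earlier results of these data known. By rule, every one of the 9 genes was named, as were the listed genes that make, cut or bind the peptides, up to 4 called genes per list with a mean of at least 10 counts, the most abundant markers and the 2 nearest profiles of each called gene. Other genes of the lists were named after their values were seen. Some genes that this rule would name are not reported here.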

Additional observations from a re-analysis of the deposited data

How the results depend on the processing

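No paired analysis was possible because the replicate numbers 1 to 3 and 4 to 6 share none. Over 16 alternatives (other tests, normalizations and filters, and each library left out), Ednrb and Agt were called higher in all, and Edn1 in all but glmTreat. Agtr2 was also called in all, which says nothing of its stability, since it entered the test only through the group in which it was high. Without the 2-fold requirement, 4885 genes were called higher and 5007 lower, and of the 9 genes 7 higher and 2 lower. With glmTreat, 3 of the 9 genes passed as higher and 0 as lower. At an adjusted p under 0.05 alone, 1 of the 9 genes fell with upper quartile normalization and 1 with library size only, and 1 to 2 with each library left out in turn. Library size only moved the median log2 fold change of all genes to 0.14 and upper quartile to 0.14, from -0.01, and both gave 5 of the 9 genes called higher. Levels were also set against the mean of 10 cell type markers, an alternative chosen after seeing the data. Relative to the endothelial mean, the log2 difference was 1.44 for Ednrb, -0.92 for Edn1 and -1.42 for Ace. Relative to the smooth muscle and pericyte mean, it was -0.87 for Ednra and -0.36 for Agtr1a. For Edn1, Ace, Ednra and Agtr1a this was the reverse of the direction in CPM, and the cause was not tested. The log2 fold changes of Edn1 and Agtr1a lay within the range of the single markers. Of 192 recomputed counts of called genes in the other pathway lists, 165 stayed within 1.5 times the reported count and 27 did not. With glmTreat, genes called higher went from 2 to 1 among the other endothelin genes, from 3 to 1 among the other renin-angiotensin genes and from 10 to 3 in Gq signalling, whose 1 gene called lower was lost there, with upper quartile, with library size only, without V3 and without T5. Without the 2-fold requirement, the other renin-angiotensin genes had 7 higher and 4 lower, Gq signalling 19 and 5, the aldosterone branch 2 higher, and genes called lower came to 3 for endothelin, 1 for kinins and 4 for Gq responses. With no filter, the other renin-angiotensin genes had 5 higher and the kinin genes 2 lower. The aldosterone branch had 1 higher with upper quartile, with library size only and without V1, T4 or T5. The kinin genes had 1 lower without V3, T5 or T6, and Gq responses had 2 lower without T6. Depth limits Agtr2, Ren1, Mas1, Agtr1b, Edn2, Edn3 and Ece2, which had at most 26 counts in any library.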
